A study of Mus musculus with 42 samples.

Results

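Fgf5, Otx2, Pou3f1, Zic2, Sox3, Foxd3, Utf1 and Sox2 are 8 genes whose products mark the primed (formative to post-implantation) state of the mouse epiblast, or are shared by it and the naive state. They were taken by symbol from the 22186 genes of an RNA-seq matrix of 42 mouse libraries, and all 8 had a row. The libraries fall into 14 groups of 3 replicates each, and the expression of the 8 genes was followed through iPSCs and primordial germ cell-like cells (PGCLCs) exposed to bisphenol S (BPS), an endocrine disruptor used in place of bisphenol A, or to the ethanol vehicle.

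In the propagation experiment, iPSCs were exposed to BPS at 1 μM or to the vehicle for 24 h and kept without it for 24 h, and PGCLCs were then made from the exposed iPSCs and from their vehicle controls without a further exposure (derived PGCLCs). In other cultures the PGCLCs themselves were exposed to BPS at 1 μM or to the vehicle for 24 h, with 8 h without it (directly exposed PGCLCs). In the dose series, iPSCs received the vehicle (0 μM) or BPS at 1, 50 or 100 μM, for 24 h with 24 h without it. Sertoli cells, the somatic cells around male germ cells, and granulosa cells, the somatic cells around the oocyte, both purified from pooled P20 littermates, were exposed to BPS at 1 μM or to the vehicle in the same way as the iPSCs. All iPSCs and PGCLCs came from a single male iPSC line. It was reprogrammed from embryonic fibroblasts of 1 fetus with a doxycycline-inducible cassette of Oct4, Sox2, Klf4 and Myc. Reads of the cassette and of the resident gene cannot be told apart for Sox2, nor for Pou5f1 (Oct4) and Klf4, whose levels are also given below. The PGCLCs passed through an epiblast-like (EpiLC) stage in activin A and bFGF, were formed as aggregates with BMP4, SCF, EGF and LIF, and were sorted for FUT4 and ITGB3. No group of the matrix was labelled EpiLC, so the primed-like stage itself was not measured. The replicate Sertoli and granulosa cultures were flasks filled from 1 pooled preparation of cells, the PGCLC replicates were collected in batches of plates, and for none of the groups do the sources say that replicates are biologically independent, so a p-value here speaks only of how far these libraries spread.

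As background, pluripotent cells of the mouse pass from a naive state, held by LIF and blocked ERK signalling, to a primed state that responds to FGF and activin. OTX2, POU3F1 (OCT6), ZIC2 and FOXD3 are transcription factors that act at enhancers as cells leave the naive state, FGF5 is the secreted growth factor most used to mark it, SOX2 and SOX3 are closely related SoxB1 factors, and UTF1 is a chromatin-bound protein of pluripotent cells. In the mouse, primordial germ cells (PGCs) arise from formative epiblast cells, and Otx2 is known to be shut off as they form, while Sox2 and Utf1 are kept.

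The genes lie apart from each other on GRCm38, the build of the deposited values. Fgf5 is at chr5:98254184-98277030, Otx2 at chr14:48657677-48673819, Pou3f1 at chr4:124656807-124660655, Zic2 at chr14:122475435-122479852, Sox3 at chrX:60891366-60893430, Foxd3 at chr4:99656299-99658622, Utf1 at chr7:139943789-139945112 and Sox2 at chr3:34650405-34652461. Sox2 lies within the longer Sox2ot transcript on the same strand, and Otx2 and Pou3f1 overlap Otx2os1 and Gm2164 on the opposite strand. The strand setting of the counting is not given in the sources used here, so reads of such overlapping pairs cannot be told apart. Foxd3 has a second row in the matrix, Foxd3_1, which held 67.2 to 105% of the CPM (read count scaled to the size of its library) of Foxd3 in the iPSC and PGCLC libraries, and reads may be shared between both rows.

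RefSeq promoter windows on GRCm38.p6, of 250 bases before to 50 bases after a start site, were found for 5 of the 8 genes (Fgf5, Otx2 with 4 start sites, Foxd3, Utf1 and Sox2). Fgf5 and Otx2 are shown because Fgf5 stood higher and Otx2 lower in PGCLCs than in iPSCs in the comparisons that follow, with every CG dinucleotide in capitals, the site of DNA methylation. The Fgf5 window is chr5:98253934-98254233 on the plus strand, and the Otx2 window is that of start site 3, the only member window with a motif match, chr14:48665060-48665359 on the minus strand.
Fgf5: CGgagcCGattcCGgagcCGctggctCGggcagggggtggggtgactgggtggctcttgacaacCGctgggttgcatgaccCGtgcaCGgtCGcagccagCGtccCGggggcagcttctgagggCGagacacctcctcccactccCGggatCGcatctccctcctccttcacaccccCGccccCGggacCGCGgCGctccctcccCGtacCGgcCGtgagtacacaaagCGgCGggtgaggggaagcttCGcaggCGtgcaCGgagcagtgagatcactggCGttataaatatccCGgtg
Otx2: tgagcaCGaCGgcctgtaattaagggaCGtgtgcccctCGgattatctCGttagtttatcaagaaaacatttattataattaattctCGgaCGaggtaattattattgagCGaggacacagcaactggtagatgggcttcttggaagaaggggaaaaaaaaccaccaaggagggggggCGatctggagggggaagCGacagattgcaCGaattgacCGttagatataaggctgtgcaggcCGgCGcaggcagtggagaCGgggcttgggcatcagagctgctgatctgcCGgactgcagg
The Fgf5 window held 29 CG dinucleotides and 68.3% G and C, and the windows of Sox2 (27), Foxd3 (25) and Utf1 (17) were also above the median of 7 over the first windows of 27025 genes. The 4 Otx2 windows held 6 to 16. Binding motifs of the members' own families were searched on both strands. The OTX core TAATCC was in 7.06% of all 32851 windows, the POU octamer ATGCAAAT in 1.74% and the SOX core CATTGT in 12.6%. Among the members' windows a single match was found, of TAATCC on the reverse strand 211 bases before Otx2 start site 3, where the printed sequence reads ggatta. A match is a description of the letters and not a measured binding site.

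The libraries held 26693847 to 44524376 reads each. Sertoli libraries had summed levels of 8 Sertoli markers of 2712 to 2913 CPM, granulosa libraries 2619 to 2766 CPM for 6 granulosa markers, and Pou5f1 (Oct4), which naive and primed cells and PGCs share, stood at 743 to 1021 CPM in iPSCs and 351 to 548 CPM in PGCLCs. In vehicle libraries, 6 of 8 PGC markers were higher in derived PGCLCs than in propagation iPSCs (Dnd1 by 2.96, Itgb3, a sorting marker, by 2.67, Nanos3 by 1.96 and Tfap2c by 1.13 on the log2 scale) and 2 were lower. By the test used below, 32.2% of all genes were higher and 35.2% lower in that comparison. Directly exposed vehicle PGCLCs had 5 of the 8 higher than dose series vehicle iPSCs and 2 (Kit and Dppa3) lower. Over all genes, 37.7% were higher and 37.3% lower there. The summed level of the 8 markers was lower in directly exposed PGCLCs than in those iPSCs. It was 295 to 334 CPM with BPS and 357 to 369 CPM with the vehicle, against 389 to 409 CPM in those iPSCs. The PGCLC libraries also held mesoderm and endoderm transcripts. The summed level of 9 such markers was 406 to 703 CPM in derived and 569 to 871 CPM in directly exposed PGCLCs, against 40.1 to 78.8 CPM in iPSCs. The 7 fibroblast markers summed to 269 to 442 CPM in derived PGCLCs and 70.3 to 83.9 CPM in directly exposed PGCLCs, against 2.31 to 6 CPM in iPSCs. In bulk RNA, fewer cells of a type and less RNA per cell cannot be told apart, and this holds for every difference that follows. Among the derived PGCLCs, vehicle replicate 2 and BPS replicate 1 had the highest Sox3 and Pou3f1 levels, and values without both are given below. Other measures set partly other libraries apart. Sox3 was 12.8, 12.1 and 6.58% of Sox2 in derived BPS replicates 1, 2 and 3, and 5.98, 11.6 and 6.58% in derived vehicle replicates 1, 2 and 3, so BPS replicate 2 went with BPS replicate 1. Over all genes BPS replicate 3 was the one apart in its group, with a chi-square per gene of 15.1 and 13.1 to the group's other libraries, which differed by 6.54. Vehicle replicate 2 was the one apart in its group by this measure, at 16.9 and 13.9, where the other libraries differed by 4.2.

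**Figure D1:**
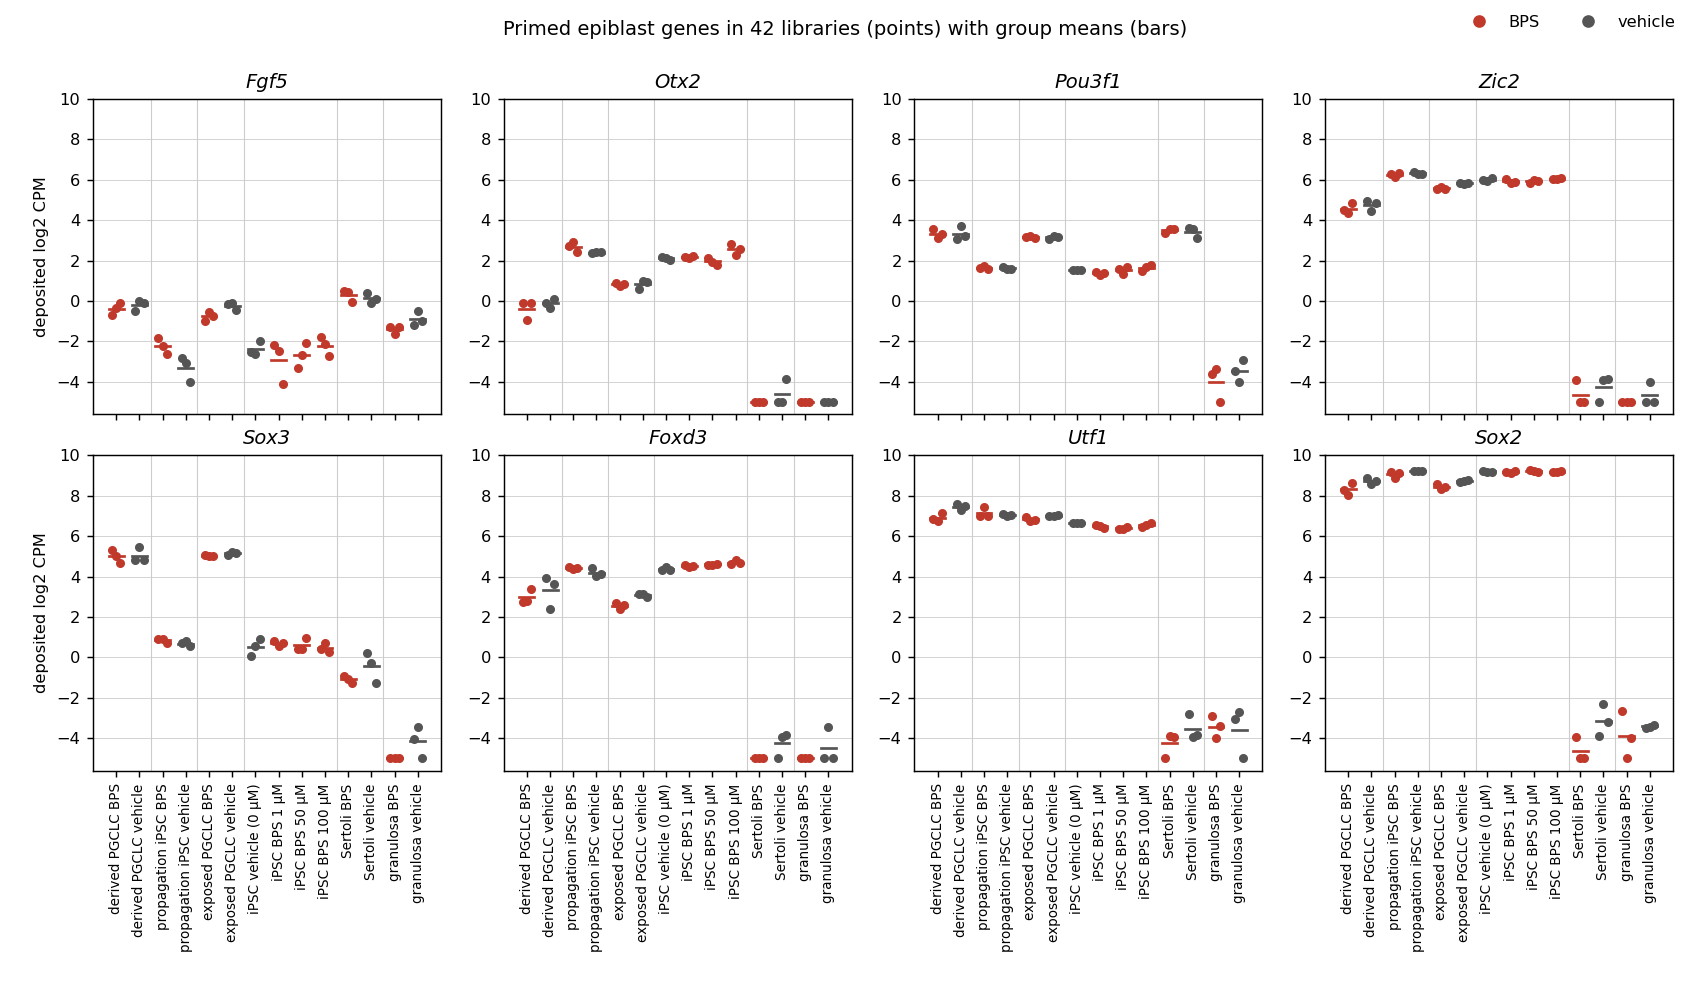
Deposited log2 CPM (y axis) of the 8 genes in all 14 groups (x axis), with 1 point per library and a bar at the mean of the 3 libraries, red for BPS and grey for vehicle. A library with 0 reads stands at -5.00. Sox3, Pou3f1 and Fgf5 stood higher in PGCLCs than in iPSCs, Otx2 and Foxd3 lower, and 5 genes had 0 to 5 reads in every Sertoli and granulosa library.

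Read per kilobase of exon, the scale on which genes can be compared, Sox2 was the highest of the 8 genes in every PGCLC and iPSC group, at 157 to 207 CPM per kb in PGCLC groups and 261 to 290 in iPSC groups. Utf1 came next, at 92.7 to 143 CPM per kb in PGCLC groups and 68.4 to 117 in iPSC groups. Below them the order differed between the cell types. In PGCLC groups Sox3 (15.7 to 17.1 CPM per kb) and Zic2 (8.31 to 19.6) followed, Sox3 above Zic2 in derived and below it in directly exposed PGCLCs, then Foxd3 (2.53 to 4.69), Pou3f1 (2.29 to 2.67), Otx2 (0.18 to 0.42) and Fgf5 (0.23 to 0.34), with Fgf5 above Otx2 in derived and below it in directly exposed PGCLCs. In iPSC groups Zic2 (20.9 to 27.8) was followed by Foxd3 (7.89 to 11.1), Otx2 (0.92 to 1.53), Sox3 (0.66 to 0.85), Pou3f1 (0.66 to 0.81) and Fgf5 (0.031 to 0.076). The ranges of Pou3f1 and Sox3 overlapped in iPSC groups, and those of Fgf5 and Otx2, of Sox3 and Zic2, and of Foxd3 and Pou3f1 overlapped in PGCLC groups. The level, place and overlap of Foxd3 are those of the Foxd3 row alone. Its level would be higher if reads of Foxd3_1 were added.

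The first comparison asked how the 8 genes differed between derived PGCLCs and the iPSCs they came from. Fgf5 reached the filter on low values (0.5 CPM or more in 3 or more libraries) in this fit through PGCLC libraries only, so its values are given with no test. Of the other 7 genes, 3 were higher and 4 lower in derived PGCLCs than in propagation iPSCs of the vehicle arm (limma, Benjamini-Hochberg adjusted p of 0.05 or less over all 17247 genes tested). Over all genes tested, 67.4% were called, 32.2% higher and 35.2% lower, so that a call by itself was the usual state of a gene here. The differences that follow are on the deposited scale, log2 of CPM plus 0.0313, a scale that shrinks the fold of genes with few reads.

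The SoxB1 factors moved apart. Sox3, on the X chromosome, had 40.2, 31.9 and 25.6 CPM in derived BPS PGCLCs, against 1.85, 1.84 and 1.60 CPM in BPS iPSCs. In the vehicle arm it had 28.3, 44.1 and 28.1 CPM in derived PGCLCs, against 1.58, 1.70 and 1.45 CPM in iPSCs. No PGCLC library came near the iPSC range, and the difference was 4.17 ± 0.19 (log2, SE) in the BPS arm (adjusted p = 8.5e-10) and 4.35 ± 0.19 in the vehicle arm (adjusted p = 7.3e-10). Sox2 itself stood at 314, 264 and 390 CPM in derived BPS PGCLCs, against 581, 474 and 559 CPM in BPS iPSCs, and at 474, 379 and 426 CPM in derived vehicle PGCLCs, against 598, 586 and 593 CPM in vehicle iPSCs. Its PGCLC libraries lay below the iPSC libraries in each arm, by -0.75 ± 0.13 (adjusted p = 1.4e-04) in the BPS arm and -0.48 ± 0.13 (adjusted p = 0.0044) in the vehicle arm. As a share of the Sox2 level in the same library, Sox3 averaged 10.5% (BPS) and 8.06% (vehicle) in derived PGCLCs, and 0.33% (BPS) and 0.27% (vehicle) in propagation iPSCs.

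Fgf5, the growth factor of the primed epiblast, was at a low level in every group. It had 20, 25 and 27 reads (0.60, 0.76 and 0.89 CPM) in derived BPS PGCLCs and 24, 30 and 32 reads (0.69, 0.98 and 0.90 CPM) in derived vehicle PGCLCs, against 7, 5 and 4 reads in BPS iPSCs and 3, 3 and 1 reads in vehicle iPSCs. All 6 PGCLC libraries were above all 6 iPSC libraries. The difference, a description only, was 1.86 in the BPS arm and 3.11 in the vehicle arm. With 1 CPM added before the log it was 0.56 in the BPS arm and 0.78 in the vehicle arm, so that its size depends on how the few iPSC reads are treated. Pou3f1, a POU factor of the primed epiblast and of neural progenitors, had 11.9, 8.56 and 9.75 CPM in derived BPS PGCLCs, against 3.02, 3.24 and 2.93 CPM in BPS iPSCs (1.69 ± 0.17, adjusted p = 1.2e-06). In the vehicle arm it had 8.31, 13.3 and 9.21 CPM in derived PGCLCs, against 3.16, 2.94 and 2.97 CPM in iPSCs (1.72 ± 0.17, adjusted p = 1.3e-06), and PGCLC and iPSC libraries overlapped in neither arm.

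Otx2, a homeodomain factor that keeps epiblast cells from the germline in the mouse, was the member lowered most. It had 0.90, 0.49 and 0.89 CPM (30, 16 and 27 reads) in derived BPS PGCLCs, against 6.54, 7.53 and 5.27 CPM in BPS iPSCs. In the vehicle arm it had 0.89, 0.75 and 1.04 CPM in derived PGCLCs, against 5.08, 5.26 and 5.31 CPM in iPSCs. The PGCLC and iPSC libraries did not overlap in either arm, with differences of -3.07 ± 0.23 (adjusted p = 8.9e-08) in the BPS arm and -2.51 ± 0.23 (adjusted p = 7.1e-07) in the vehicle arm. Zic2, a zinc finger factor at primed enhancers, had 22.3, 20.7 and 28.8 CPM in derived BPS PGCLCs, against 78.4, 69.9 and 79.3 CPM in BPS iPSCs (-1.68 ± 0.14, adjusted p = 1.7e-07). In the vehicle arm it had 31.3, 21.9 and 28.8 CPM in derived PGCLCs, against 84.1, 77.6 and 78.8 CPM in iPSCs (-1.57 ± 0.14, adjusted p = 3.9e-07).

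Foxd3, a forkhead factor of pluripotent cells and of the neural crest, had 6.72, 6.95 and 10.6 CPM in derived BPS PGCLCs, against 22, 20.8 and 21.4 CPM in BPS iPSCs (-1.43 ± 0.31, adjusted p = 0.0010). It was uneven among the derived vehicle PGCLCs, with 15.0, 5.14 and 12.5 CPM, against 21.5, 16.4 and 17.1 CPM in vehicle iPSCs. All PGCLC libraries of the vehicle arm were lower than all its iPSC libraries (-0.88 ± 0.31, adjusted p = 0.023). That call rested on single libraries, since the difference was -0.41 (adjusted p = 0.072) without PGCLC vehicle replicate 2 and -0.76 (adjusted p = 0.082) without iPSC vehicle replicate 1. Utf1, a chromatin protein of pluripotent and germ cells, had 114, 108 and 143 CPM in derived BPS PGCLCs and 127, 175 and 127 CPM in BPS iPSCs, which overlapped (-0.23 ± 0.13, adjusted p = 0.13). It was higher in the vehicle arm, with 189, 159 and 178 CPM in derived PGCLCs, against 135, 127 and 131 CPM in iPSCs (0.42 ± 0.13, adjusted p = 0.011). In 1 fit of all 42 libraries the vehicle-arm calls of Utf1 (adjusted p = 0.27) and Sox2 (adjusted p = 0.18) were lost, and without derived BPS replicate 3 Utf1 passed as lower in the BPS arm (-0.35, adjusted p = 0.026). In the BPS arm 6 of the 7 genes other than Fgf5 were called, 2 higher and 4 lower, where 72.4% of all genes were.

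**Figure D2:**
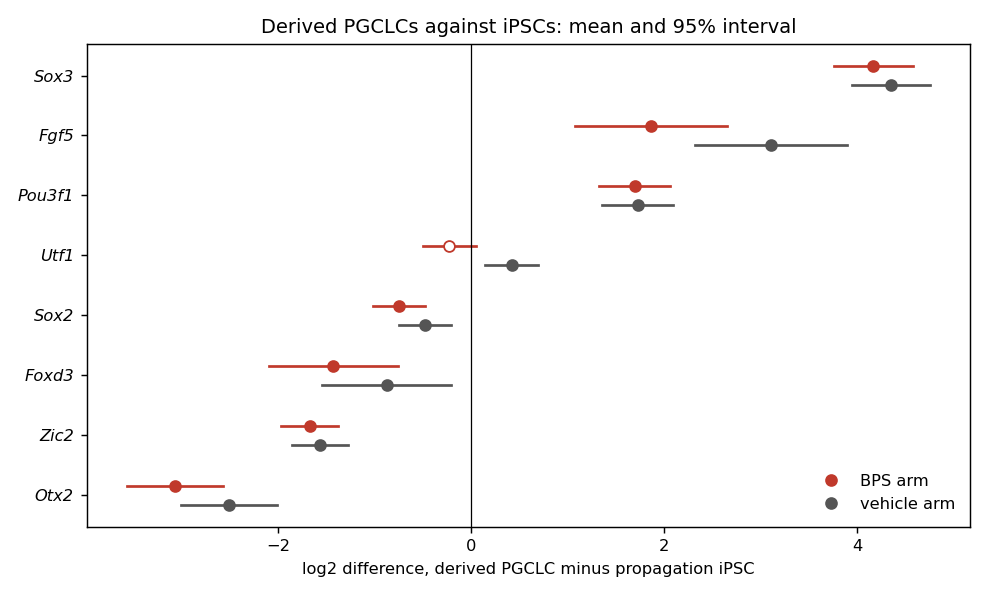
Log2 difference between derived PGCLCs and propagation iPSCs (x axis) for each gene (y axis), with the mean and 95% interval of 3 against 3 libraries, red for the BPS arm and grey for the vehicle arm. Filled points had an adjusted p of 0.05 or less, and for Fgf5, which reached the filter through PGCLC libraries only, the point is a description and no test. Sox3 differed by 4.17 in the BPS arm and 4.35 in the vehicle arm, Otx2 by -3.07 and -2.51, and the open point is Utf1 in the BPS arm at -0.23.

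The difference between the arms was tested as an interaction, and none of the 7 genes other than Fgf5 was called (1 gene in all, 0.0058%). Among the 7 genes other than Fgf5, the interaction of Utf1 (-0.64 ± 0.18, adjusted p = 0.35) was the only one with an unadjusted p below 0.05, at 0.0037. None of the 7 was called by limma-voom, which weights each value by its depth, run on recovered reads.

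Around the 8 genes, the wider programs split as follows in the vehicle arm. Of 17 other epiblast and EpiLC genes, 11 were higher and 4 lower in derived PGCLCs than in iPSCs (median 0.68, against -0.04 over all genes tested). Sox4 (2.85), the Wnt effector Lef1 (2.20), Wnt8a (2.71) and Fgf8 (6.08) had the smallest adjusted p. Of 12 FGF receptors and feedback genes of ERK signalling, 8 were higher and 1 lower (median 1.11), led by the ERK phosphatases Dusp4 (4.55) and Dusp6 (1.98) and by Fgfr3 (4.74). The iPSC and PGCLC media differed, so medium and cell type cannot be told apart in any of these lists. Of 12 naive pluripotency genes, 9 were lower and 1 higher (median -1.25), with Tcl1 at -2.50, Fgf4 at -2.59, Klf2 at -1.22 and Nanog at -1.27. Of 6 neural genes tested, 3 were lower and 1 higher. Of the 8 mesoderm and endoderm markers tested, 7 were higher, among them Cdx2 by 4.57 and Hand1, which had 254 to 397 CPM in derived vehicle PGCLCs and 2 reads in all over the 3 vehicle iPSC libraries. The part of cells with these transcripts in the differences of the members, and of the other epiblast genes and the other lists, was not tested.

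The directly exposed vehicle PGCLCs, set against the dose series vehicle iPSCs, showed the same cell types in other cultures, in 1 fit of all 18 vehicle libraries. Of the 7 genes other than Fgf5, 2 were higher and 2 lower, where 75% of the 18847 genes tested were called. Sox3 had 33.0, 36.5 and 36.2 CPM in PGCLCs, against 1.04, 1.43 and 1.86 CPM in iPSCs (4.62 ± 0.36, adjusted p = 9.0e-10). Fgf5 had 25, 28 and 23 reads in PGCLCs, against 4, 4 and 6 reads in iPSCs. It reached the filter in this fit through PGCLC and somatic libraries only, so no test is given. Pou3f1 had 8.26, 9.11 and 9.08 CPM in PGCLCs, against 2.86, 2.83 and 2.89 CPM in iPSCs (1.61 ± 0.22, adjusted p = 2.7e-06). For these 3 genes all PGCLC libraries were above all iPSC libraries. Otx2 was lower, with 1.47, 1.93 and 1.87 CPM in PGCLCs, against 4.43, 4.33 and 4.09 CPM in iPSCs (-1.28 ± 0.28, adjusted p = 4.3e-04). Foxd3 was lower too, with 8.72, 8.85 and 7.83 CPM in PGCLCs, against 19.7, 21.9 and 19.8 CPM in iPSCs (-1.27 ± 0.40, adjusted p = 0.0085).

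Sox2, Utf1 and Zic2 did not pass in that fit, though their libraries did not overlap. Sox2 had 403, 430 and 434 CPM in PGCLCs and 595, 584 and 583 CPM in iPSCs (-0.48 ± 0.22, adjusted p = 0.063). Utf1 had 126, 127 and 134 CPM in PGCLCs and 98.9, 98.6 and 100.3 CPM in iPSCs (0.37 ± 0.38, adjusted p = 0.39), and Zic2 had 57, 55.5 and 57 CPM in PGCLCs and 63.7, 60.6 and 67.2 CPM in iPSCs (-0.18 ± 0.26, adjusted p = 0.56). The fit shares 1 estimate of the spread with Sertoli and granulosa libraries, where these genes have 0 to 5 reads, and limma-voom on recovered reads, which weights such libraries down, called all 7 genes other than Fgf5 (3 higher and 4 lower). Utf1 and Sox2 also passed when 0.25, 1 or 4 CPM was added before the log.

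The cultures of a cell type differed from each other as well. Derived vehicle PGCLCs, set against directly exposed vehicle PGCLCs, had lower Otx2, at 0.75 to 1.04 CPM against 1.47 to 1.93 CPM (-0.95 ± 0.28, adjusted p = 0.010), and lower Zic2, at 21.9 to 31.3 CPM against 55.5 to 57 CPM (-1.06 ± 0.26, adjusted p = 0.0029). These were 2 of the 8 genes, where 42.5% of all genes were called. Utf1 was also higher in derived PGCLCs by limma-voom (0.44, adjusted p = 4.9e-07), where the main test gave 0.44 ± 0.38 (adjusted p = 0.38). In vehicle iPSCs, the propagation cultures set against the dose series gave 28.1% of all genes, and none of the 7 genes other than Fgf5 passed. Fgf5 had 1 to 3 reads a library in the propagation iPSCs and 4 to 6 in the dose series iPSCs, all below the filter, so no test is given. By limma-voom Utf1 (0.40) and Zic2 (0.33) were higher in the propagation iPSCs. Experiment and culture cannot be told apart in these comparisons.

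The dose series asked how iPSCs responded to BPS. None of the 7 members tested was called at 1 μM (8.54% of 16349 genes were), 2 were called at 50 μM (26.4%) and 2 at 100 μM, both higher (30.7%, with 15.3% higher). Fgf5, at 1 to 11 reads in all 12 libraries, was below the filter on low values and was not tested. The 3 doses share their vehicle libraries, so their values are given side by side.

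Foxd3 stood higher than vehicle at every dose. It had 19.7, 21.9 and 19.8 CPM in vehicle iPSCs, 23.6, 22 and 23.0 CPM at 1 μM, 23.8, 24.1 and 24.9 CPM at 50 μM, and 24.3, 27.9 and 25.4 CPM at 100 μM. All BPS libraries were above all vehicle libraries, though the lowest at 1 μM was close to the highest vehicle library. The difference from vehicle was 0.16 ± 0.07 (adjusted p = 0.13) at 1 μM, 0.25 ± 0.07 (adjusted p = 0.0089) at 50 μM and 0.34 ± 0.07 (adjusted p = 8.5e-04) at 100 μM. The row Foxd3_1 passed at all 3 doses (0.24, 0.23 and 0.36, with adjusted p of 0.043, 0.019 and 9.1e-04), and as its reads may be those of the same gene it is not separate evidence.

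Otx2 rose at 100 μM, to 7, 4.88 and 5.83 CPM, against 4.43, 4.33 and 4.09 CPM in vehicle iPSCs (0.45 ± 0.12, adjusted p = 0.011). Its 3 BPS libraries were above the vehicle ones but far apart from each other, and without the first of them the difference was 0.32 (adjusted p = 0.081). At 1 μM it had 4.45, 4.40 and 4.61 CPM and at 50 μM 4.38, 3.79 and 3.43 CPM, neither of which passed. Utf1 fell at 50 μM, to 82.4, 81.8 and 87.5 CPM, against 98.9, 98.6 and 100.3 CPM in vehicle iPSCs (-0.24 ± 0.05, adjusted p = 0.0028). At 1 μM it had 94.4, 89.3 and 85.8 CPM (-0.14 ± 0.05, adjusted p = 0.10) and at 100 μM 86.6, 94.4 and 98.6 CPM (-0.09 ± 0.05, adjusted p = 0.20), so the size did not follow the dose.

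Sox2, Zic2, Pou3f1 and Sox3 passed at no dose. For Sox2 the 95% interval of the difference was -0.14 to 0.06 at 1 μM, -0.08 to 0.12 at 50 μM and -0.11 to 0.09 at 100 μM, with 548 to 616 CPM in the 9 BPS libraries and 583 to 595 CPM in the vehicle libraries. For Zic2 it was -0.21 to 0.04, -0.20 to 0.05 and -0.08 to 0.17 at the 3 doses. The intervals of Pou3f1 (-0.43 to 0.11, -0.27 to 0.27 and -0.15 to 0.38) and Sox3 (-0.27 to 0.61, -0.37 to 0.51 and -0.50 to 0.38) were wider, with 38 to 72 reads of Sox3 in a BPS library. Between 100 μM and 1 μM, 72 genes in all were called (0.44%), none of them a member, and the largest member difference was that of Otx2 (0.38 ± 0.12, adjusted p = 0.14).

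In the same libraries the other lists moved at 100 μM as follows. Of 15 other epiblast genes tested, 7 were lower and 1 higher (median -0.16), with Etv4 (-0.37), Wnt8a (-1.29), the DNA methyltransferase Dnmt3b (-0.27) and Lin28b (-0.48) having the smallest adjusted p. Of 12 naive genes 4 were higher and none lower (Tbx3 by 0.35, Klf4 by 0.29, Dppa5a by 0.34 and Nr0b1 by 0.15). Of 8 PGC markers 4 were lower and none higher (median -0.36, with Tfap2c at -0.52, Dppa3 at -0.57, Prdm1 at -0.47 and Dnd1 at -0.42), and their summed level was 342 to 357 CPM at 100 μM, against 389 to 409 CPM with the vehicle. Of 6 neural genes tested 3 were higher and 1 lower (Sox1 by 0.59, Otx1 by 0.64, Pax3 by 1.15 and Tubb3 by -0.28), and of 11 FGF receptors and feedback genes 1 was higher and 2 lower (Spry2 by 0.26, Fgfr2 by -0.68 and Fgfr1 by -0.19). Mesoderm and endoderm markers summed to 61.3 to 68.5 CPM at 100 μM, against 50.0 to 56.7 CPM with the vehicle, with 2 of 5 tested higher (Cdx2 by 0.83 and T by 0.23), and their part in the result was not tested.

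In directly exposed PGCLCs, 4 of the 8 genes fell with BPS at 1 μM and none rose, where 26.6% of the 16342 genes tested were called and 11.3% fell. Sox2 had 378, 326 and 346 CPM in BPS PGCLCs, against 403, 430 and 434 CPM in vehicle PGCLCs (-0.27 ± 0.04, adjusted p = 3.9e-04). Zic2 had 46.7, 49.9 and 46.2 CPM in BPS PGCLCs, against 57, 55.5 and 57 CPM in vehicle PGCLCs (-0.25 ± 0.04, adjusted p = 4.6e-04). Utf1 had 122, 108 and 112 CPM in BPS PGCLCs, against 126, 127 and 134 CPM in vehicle PGCLCs (-0.18 ± 0.04, adjusted p = 0.0060). Foxd3 fell furthest, to 6.42, 5.16 and 6.04 CPM in BPS PGCLCs, against 8.72, 8.85 and 7.83 CPM in vehicle PGCLCs (-0.53 ± 0.10, adjusted p = 0.0011), and Foxd3_1 fell by 0.51. For each of the 4 genes all BPS libraries were below all vehicle libraries. Vehicle replicate 1 stood apart over all genes (chi-square per gene of 41.0 and 38.2 to its group's other libraries, which differed by 2.02), and without it all 4 genes still passed, at -0.31 for Sox2, -0.24 for Zic2, -0.20 for Utf1 and -0.51 for Foxd3. In a fit of all 42 libraries, which shares 1 estimate of the spread over all groups, none of the 4 passed.

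The other 4 members did not pass. Sox3 had 32.9, 31.9 and 32.6 CPM in BPS PGCLCs and 33.0, 36.5 and 36.2 CPM in vehicle PGCLCs (-0.12 ± 0.05, adjusted p = 0.086). Fgf5 had 17, 25 and 17 reads in BPS PGCLCs and 25, 28 and 23 reads in vehicle PGCLCs (-0.52 ± 0.26, adjusted p = 0.15), a depth at which a change of this size was not told from the spread. Otx2 (1.82, 1.63 and 1.77 CPM with BPS and 1.47, 1.93 and 1.87 CPM with the vehicle) and Pou3f1 (8.94, 9.16 and 8.77 CPM with BPS and 8.26, 9.11 and 9.08 CPM with the vehicle) overlapped, with 95% intervals of -0.37 to 0.36 and -0.14 to 0.19.

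The fall of the 4 genes stood beside other shifts in the same libraries. All 12 naive genes fell (median -0.39), with Nr0b1 at -0.63, Esrrb at -0.48, Klf5 at -0.49 and Klf4 at -0.46, and Pou5f1 fell by 0.13 (adjusted p = 0.019). Of 8 PGC markers, 5 fell and none rose (Prdm14 by -0.46, Kit by -0.33, Prdm1 by -0.19 and Tfap2c by -0.18). Of 9 mesoderm and endoderm markers, 7 rose and none fell (Mixl1 by 1.42, Mesp1 by 0.96, Hand1 by 0.57 and Cdx2 by 0.49), and their summed level was 759 to 871 CPM in BPS PGCLCs, against 569 to 594 CPM in vehicle PGCLCs, with none of the 9 at 0. The part of such cells in the fall of the members was not tested. Of 17 other epiblast genes 7 rose and 3 fell (Fgf15 by 0.83, Lef1 by 0.49, Dnmt3a by 0.33 and the Nodal co-receptor Tdgf1 by -0.38), and of 12 FGF receptors and feedback genes 5 rose and 2 fell (Dusp6 by 0.34, Spry4 by 0.32, Etv5 by -0.23 and Fgfr2 by -0.38).

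**Figure D3:**
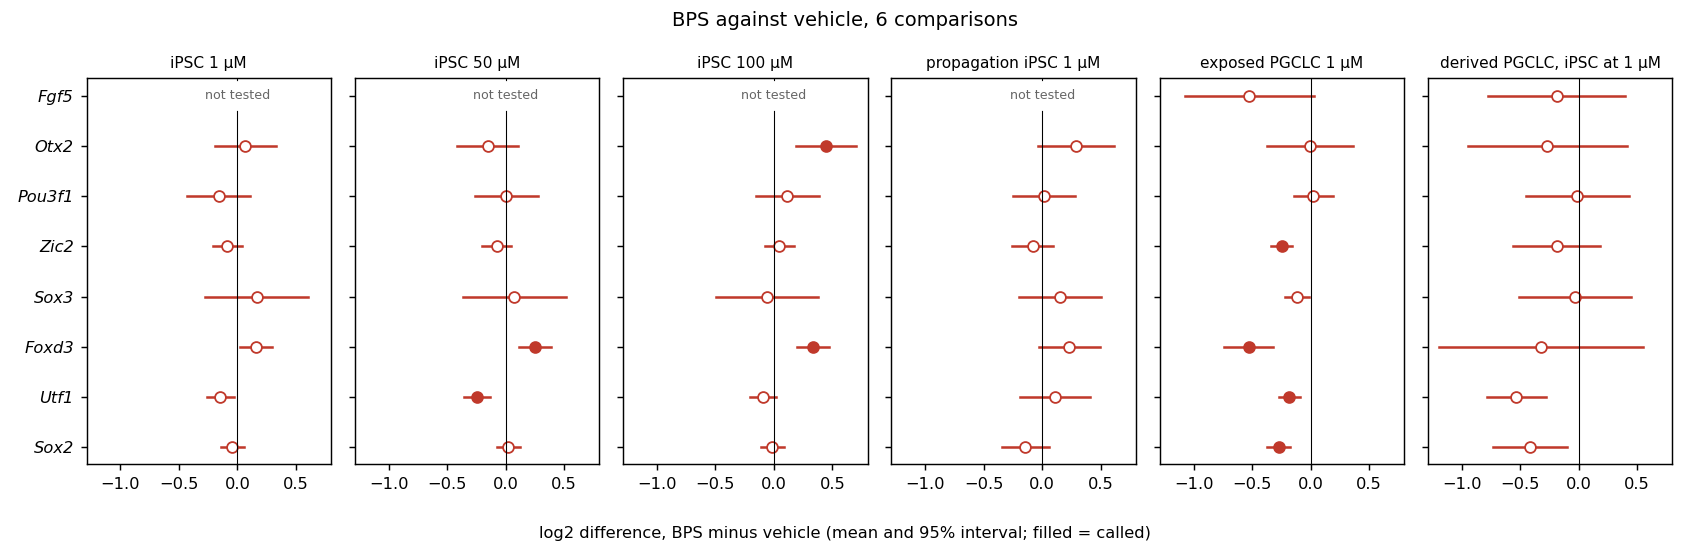
Log2 difference between BPS and vehicle (x axis) for each gene (y axis) in 6 comparisons, with the mean and 95% interval of 3 against 3 libraries and filled points for differences that passed the test. Foxd3 stood at 0.34 in iPSCs at 100 μM and at -0.53 in directly exposed PGCLCs, and no point is filled in the propagation iPSCs or the derived PGCLCs.

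The response to BPS at 1 μM was then compared between directly exposed PGCLCs and dose series iPSCs as an interaction, which 13.4% of 17366 genes passed. Foxd3 passed (-0.69 ± 0.12, adjusted p = 0.0018), being lower with BPS in all PGCLC libraries and higher with BPS in all iPSC libraries. The iPSC difference at 1 μM was not called by itself (0.16 ± 0.07, limma adjusted p = 0.13), and the Foxd3 libraries overlapped in the propagation iPSCs. Sox2 was at the threshold (-0.23 ± 0.07, adjusted p = 0.045), and the call was lost when any of 9 of the 12 libraries was left out (adjusted p of 0.058 to 0.12 in these). Of the other 6 genes, Fgf5 reached the filter through PGCLC libraries only and is given no test. The rest did not pass, with Zic2 at -0.16 ± 0.08 (adjusted p = 0.18) and Utf1 at -0.04 ± 0.07 (adjusted p = 0.79). The groups also differ in their time without BPS (8 h in PGCLCs and 24 h in iPSCs) and in vessel, which cannot be told apart from cell type.

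In the propagation experiment none of the 7 members tested was called in the exposed iPSCs (Fgf5, at 1 to 7 reads, was below the filter), where 0.0128% of genes (2 of 15572) were, nor was any of the 8 in the PGCLCs derived from them, where 0% of 16268 genes were. Before adjustment, p was under 0.05 for 1744 genes in the iPSCs and for 2578 genes in the derived PGCLCs. Limma-voom called no gene in either comparison. Among the members tested, none in the iPSCs and 2 in the derived PGCLCs (Utf1 and Sox2) had an unadjusted p under 0.05. Utf1 had 114, 108 and 143 CPM in derived BPS PGCLCs and 189, 159 and 178 CPM in derived vehicle PGCLCs, without overlap (-0.53 ± 0.11, limma adjusted p = 0.19). Sox2 had 314, 264 and 390 CPM in derived BPS PGCLCs and 474, 379 and 426 CPM in derived vehicle PGCLCs, which overlapped (-0.42 ± 0.14, limma adjusted p = 0.24).

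By the standard deviation of CPM, the libraries of a group lay farther apart in the derived than in the directly exposed PGCLCs for every member but Otx2. Foxd3 had 6.72, 6.95 and 10.6 CPM with BPS and 15.0, 5.14 and 12.5 CPM with the vehicle, and Zic2 22.3, 20.7 and 28.8 CPM with BPS and 31.3, 21.9 and 28.8 CPM with the vehicle. Vehicle replicate 2 had the lowest Foxd3 and the highest Sox3 (44.1 CPM) and Pou3f1 (13.3 CPM) of its group, and BPS replicate 1 had the lowest Foxd3 and the highest Sox3 (40.2 CPM) and Pou3f1 (11.9 CPM) of its group. The same libraries had the highest sums of mesoderm and endoderm markers (703 CPM in BPS replicate 1 and 578 CPM in vehicle replicate 2) and of PGC markers (520 CPM in BPS replicate 1 and 677 CPM in vehicle replicate 2) in their groups. Without both libraries, a choice made after seeing the data, the differences were -0.56 for Utf1, -0.49 for Sox2 and -0.68 for Foxd3 (adjusted p of 0.27 for Utf1, Sox2 and Foxd3), and still no gene of the matrix was called. Without BPS replicate 3 in their place no gene was called either, with Utf1 at -0.66 (adjusted p = 0.057) and Sox2 at -0.56 (adjusted p = 0.074).

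In the exposed iPSCs of that experiment, Otx2 had 6.54, 7.53 and 5.27 CPM with BPS and 5.08, 5.26 and 5.31 CPM with the vehicle (0.29 ± 0.14, adjusted p = 0.46), and Foxd3 had 22, 20.8 and 21.4 CPM with BPS and 21.5, 16.4 and 17.1 CPM with the vehicle (0.23 ± 0.11, adjusted p = 0.46). BPS replicate 2 stood apart with the lowest Sox2 (474 CPM, against 559 and 581 CPM in the other BPS libraries) and the highest Utf1 (175 CPM, against 127 CPM in both others). Without it 1484 genes of the matrix were called, none of them a member. The difference of the response to 1 μM between propagation and dose series iPSCs was called for none of the 7 members tested, as for 0% of 16233 genes in all (693 had an unadjusted p under 0.05, none of them a member, and limma-voom called no gene). Its 95% intervals for the members were within -0.60 and 0.58. The responses of derived and directly exposed PGCLCs differed for 1.97% of 16894 genes, none of them a member, with Utf1 at -0.35 ± 0.13 (adjusted p = 0.18).

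**Figure D4:**
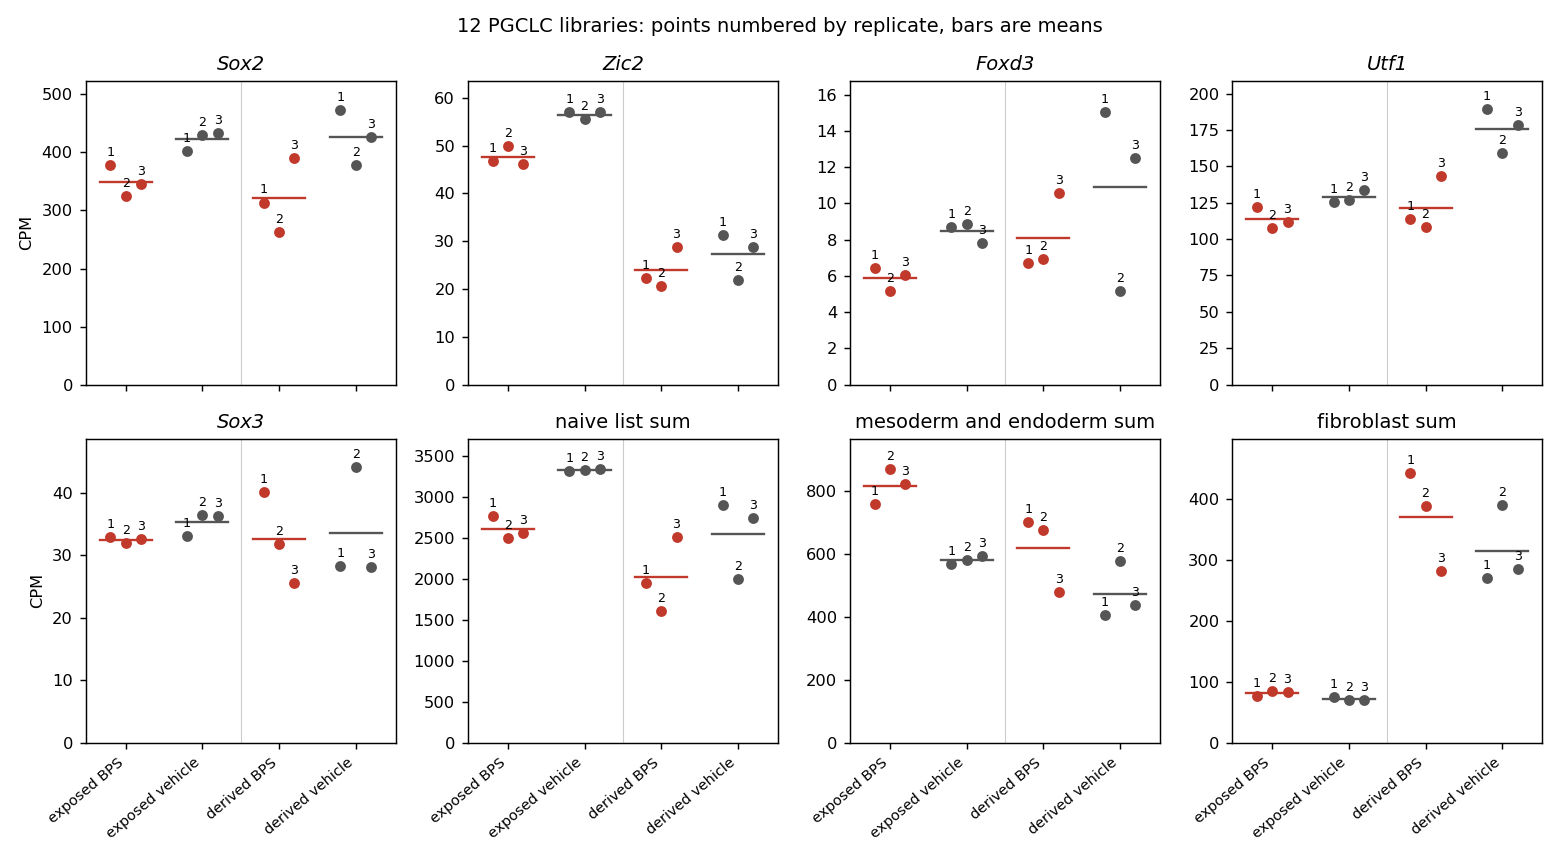
CPM (y axis, from 0) of 5 members and summed CPM of 3 marker lists in the 12 PGCLC libraries (x axis: directly exposed and derived groups, BPS left of vehicle), with 1 point per library numbered by replicate and a bar at the mean. In directly exposed PGCLCs the 3 BPS libraries of Sox2, Zic2, Foxd3 and Utf1 lie below the 3 vehicle libraries, while the mesoderm and endoderm sum is 759 to 871 CPM with BPS and 569 to 594 CPM with the vehicle. In derived PGCLCs the libraries of a group lie far apart.

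In the somatic cells most of the 8 genes were near the limit of detection. Otx2, Zic2, Foxd3, Utf1 and Sox2 had 0 to 5 reads in every Sertoli and granulosa library, so no fold is given. Pou3f1 was an exception in Sertoli cells, with 10.4, 11.8 and 11.7 CPM in BPS and 12, 11.7 and 8.59 CPM in vehicle cultures, a range that met that of PGCLCs (8.26 to 13.3 CPM), and it had 0 to 3 reads in granulosa cells. Fgf5 had 27 to 40 reads in BPS and 26 to 35 reads in vehicle Sertoli cultures, and 9 to 15 reads in BPS and 14 to 22 reads in vehicle granulosa cultures, and its 0.29 to 1.4 CPM there lay above its 0.028 to 0.26 CPM in all iPSC libraries. Of the 8 genes, 2 passed the filter in Sertoli cells (Pou3f1 at 0.08 ± 0.11, adjusted p = 0.72, and Fgf5 at 0.18 ± 0.24, adjusted p = 0.73) and none in granulosa cells. BPS called 5.24% of genes in Sertoli and 2.6% in granulosa cells.

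Sox3, which spermatogonia express in the mouse, had 14, 12 and 11 reads (0.49, 0.45 and 0.39 CPM) in BPS Sertoli cultures and 30, 23 and 10 reads (1.11, 0.80 and 0.39 CPM) in vehicle Sertoli cultures, and 0 to 2 reads in granulosa cultures. The 6 markers of testis germ cells summed to 28.2 to 33.3 CPM in BPS and 38.3 to 41.5 CPM in vehicle Sertoli cultures, with all 6 detected. The same 6 markers summed to 164 to 241 CPM in iPSCs, which share them. Sox3 was below the filter in Sertoli cells, and the part of germ cells in its level was not tested.

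Over the means of the 14 groups, the 8 genes formed unlike patterns. Zic2, Sox2, Utf1 and Foxd3 followed each other (Pearson r of 0.98 to 0.996 between pairs, over 14 group means that share the contrast of pluripotent with somatic cells), Otx2 followed them with r of 0.94 to 0.98, Sox3 and Pou3f1 had r = 0.79 with each other, and Fgf5 had r of -0.67 to -0.47 with these 5. Among 13222 other genes with a mean CPM of at least 5 in some group, those most like Sox2 were Ildr1, Esrrb (a naive state factor) and Tmem30b (r of 0.998 to 0.999), those most like Utf1 were Rhox6, Ptpn6 and Nphs1 (0.998 to 0.999), those most like Zic2 were Trh, Cdh1 and AU018091 (0.999 each) and those most like Foxd3 were Smagp, Gtsf1l and D7Ertd143e (0.998 to 0.999). Otx2 was closest to Dmtn, Ubash3a and Sox21 (0.995 to 0.996), Sox3 to Rab27a, Mta3 and Rimbp2 (0.979 to 0.991), Pou3f1 to 4930447C04Rik, Rab11fip1 and Ankrd33b (0.985 to 0.990), and Fgf5 to Tafa5, Prokr2 and Laptm4b (0.965 to 0.973).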

How the data were processed

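Poly(A) RNA of 42 libraries was sequenced by the authors from strand-specific preparations, aligned to mm10 (GRCm38) with Rsubread and normalised with edgeR. They deposited 1 matrix of log2 CPM values (read counts scaled to TMM-corrected library size, with 0.0313 CPM added) for 22186 genes. The versions of Rsubread and edgeR, the annotation and the strand setting were not given in the sources used here. Whole reads could be recovered from the deposited log2 values (at least 99.9% of the values of a library within 0.05 reads of a whole number), which gave 26693847 to 44524376 reads per library. No pair of replicates agreed within counting noise (lowest chi-square per gene 2.02).

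Groups were taken from the sample labels. Differences were tested on the deposited log2 scale with limma 3.58.1 (trend, R 4.3.3), with Benjamini-Hochberg adjustment over all genes that reached 0.5 CPM in 3 or more libraries of a fit, two-sided, at an adjusted p of 0.05 or less. The fits covered the 12 dose series libraries, each exposed cell type alone (6 libraries), the 12 propagation libraries together for PGCLCs against iPSCs and its interaction, the 18 vehicle libraries, and the libraries of both experiments for the other interactions. Values are printed with ± SE unless another error is named. The script was tested on simulated data. Other steps used Python 3.11.15, pandas 2.3.3, numpy 2.4.6 and matplotlib 3.10.9. Counting error only is covered by the reads given.

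All 8 genes are named in every comparison, with the 3 genes most like each over group means and, from each gene list, at most 4 with the smallest adjusted p. The members and lists were chosen with earlier results of these data known. The list genes Cer1, Neurog2, Six3, Cyp19a1, Bmp15, Oosp1 and Hbb-bs were not used here. Alternatives were other added CPM values, other filters, other scaling, a replicate block, 1 fit of all 42 libraries, limma-voom on the recovered reads and leaving out each library. Methylation measurements were not used here.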

Additional observations from a re-analysis of the deposited data

Results flagged for a closer look

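The response to BPS at 1 μM differed between directly exposed PGCLCs and dose series iPSCs for 2 of the 8 genes by a test of the difference itself (limma, interaction of BPS and cell type, adjusted over 17366 genes, 13.4% of which passed). Of the 8, Fgf5 reached the filter through PGCLC libraries only and is given no test. For Foxd3 the interaction was -0.69 ± 0.12 on the log2 scale (SE, adjusted p = 0.0018), with all 3 BPS libraries below all 3 vehicle libraries in PGCLCs and above them in iPSCs. For Sox2 it was -0.23 ± 0.07 (adjusted p = 0.045), with all 3 BPS libraries below all 3 vehicle libraries in PGCLCs, while 548 to 589 CPM with BPS and 583 to 595 CPM with the vehicle overlapped in iPSCs. The Sox2 call was lost when any of 9 of the 12 libraries was left out (adjusted p of 0.058 to 0.12), with a replicate block (adjusted p = 0.063) and without a filter (adjusted p = 0.058). In 1 fit of all 42 libraries neither Foxd3 (adjusted p = 0.38) nor Sox2 (adjusted p = 0.84) passed. Both values rest on cultures that also differ in vessel and in the time without BPS.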

How the results depend on the processing

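Of 124 results for single members, 33 passed the test and 91 did not. Of the 33, 19 passed under every alternative tried and 14 lost the call under 1 or more, 11 of the 91 were called under 1 or more, and 0 changed direction while called. These counts and those below include Fgf5, which is given no test in the text where it reached the filter only through PGCLC or somatic libraries. Its calls there do not stand as tests. Among the 19 they are derived PGCLCs against iPSCs in each arm, and directly exposed vehicle PGCLCs against dose series iPSCs. Among the 14 it is the call between the vehicle iPSC cultures. The counts of 6 and 8 members given below for PGCLCs against iPSCs also include Fgf5. In 1 fit of all 42 libraries, whose spread is shared by all cell types, the number of members called was 0 at 50 μM, 0 at 100 μM (both 2 in the main test), 0 in directly exposed PGCLCs (4), 0 for the difference of the BPS response between PGCLCs and iPSCs (2), 0 between the vehicle iPSC cultures (1, Fgf5), 6 between derived PGCLCs and iPSCs of the vehicle arm (8, with Utf1 at adjusted p = 0.27 and Sox2 at 0.18), and 1 in Sertoli cells (0), Sox2 on 1, 0 and 0 reads with BPS and 1, 5 and 2 reads with the vehicle. With a filter of 5 CPM 1 member was called at 100 μM, as Otx2 did not reach 5 CPM in 3 libraries, and 0 between the vehicle iPSC cultures. Without any filter 0 were called between those cultures and 1 for the difference of response between PGCLCs and iPSCs. With 0.25, 1 or 4 CPM added, 2, 3 and 3 members were called between the vehicle iPSC cultures, and by limma-voom 2 between these and 8 between directly exposed PGCLCs and iPSCs. Leaving out each library in turn, 1 to 2 members were called at 100 μM, 0 to 1 between the vehicle iPSC cultures, 1 to 3 for the difference of response between PGCLCs and iPSCs, and 0 to 1 for that between derived and directly exposed PGCLCs (Utf1 at -0.48, adjusted p = 0.019, without derived BPS replicate 3), and Utf1 passed between derived PGCLCs and iPSCs of the BPS arm without that library (-0.35, adjusted p = 0.026). Sox3 in directly exposed PGCLCs passed with upper-quartile scaling (-0.15, adjusted p = 0.024) and without vehicle replicate 1 (-0.16, adjusted p = 0.030). Same-numbered replicates did not deviate together (r of -0.40 to 0.18, and in 0 of 15 comparisons above 0.1 for all 3 numbers). With a replicate block 1 member in place of 2 was called for the difference of response between PGCLCs and iPSCs, as Sox2 was lost (adjusted p = 0.063), and no other count of members changed. The fold of Fgf5 depended on the added CPM, with 3.11 between derived PGCLCs and iPSCs of the vehicle arm at 0.0313 CPM, 1.76 at 0.25 CPM and 0.25 at 4 CPM. Over all genes, the counts of calls ranged with the alternatives from 602 to 2134 at 1 μM, from 0 to 328 between 100 and 1 μM, from 43 to 1298 in Sertoli and 38 to 452 in granulosa cells, from 1619 to 5091 in directly exposed PGCLCs, from 0 to 2046 in propagation iPSCs, from 0 to 721 in derived PGCLCs, from 0 to 888 for the interaction of the propagation experiment, from 1247 to 3769 for the difference of response between PGCLCs and iPSCs, from 0 to 11 between iPSC cultures and from 106 to 769 between PGCLC cultures. Leaving out derived vehicle replicate 2 and derived BPS replicate 1 together was chosen after seeing the data. The depth limits Fgf5, at 1 to 40 reads a library, and Sox3 in iPSCs, at 29 to 72 reads.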
